A study of Mus musculus with 6 samples.

Results

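The genes described here encode the subunits of oxidative phosphorylation, the machinery by which mitochondria turn the oxidation of fuel into ATP. They were chosen by gene name from a count table of mouse ear (dermal) fibroblasts: protein-coding genes whose symbol marks a subunit of complexes I to V, in the nuclear or the mitochondrial genome. The rule found 99 identifiers with 98 distinct symbols among the 57010 identifiers of the table. Of these, 96 encode subunits, 83 in the nucleus and 13 in mitochondrial DNA. The other 3 match the rule by name alone and are described apart: Ndufa4l2, a paralogue of Ndufa4, Cox7a2l, which joins complexes III and IV, and Atp5s. After a filter on low counts, 93 of the 99 were tested. Cox6a2, Cox7b2, Cox8b, Cox8c, mt-Atp8 and a second identifier of Atp5o were not.

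The cells were kept for 3 days on 3 substrates, with 2 libraries each: a soft polyacrylamide hydrogel of 1 kPa, a stiffer gel of 20 kPa, and glass, which is far stiffer than either gel. Each sample held 500000 fibroblasts, and sequencing was of polyadenylated RNA. The labels give neither strain nor genotype, age or sex of the mice, nor whether both libraries on a substrate come from different mice or dishes. The p-values therefore reflect how far these libraries differed among themselves, which may be technical variation alone. The comparisons of 1 kPa and of 20 kPa with glass use the same glass libraries. The study asked how the stiffness of the surroundings bears on the epigenetic state of fibroblasts that are to be reprogrammed into neurons.

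Electrons from NADH enter the respiratory chain at complex I and those from succinate at complex II. They pass through ubiquinone to complex III, through cytochrome c to complex IV, and there to oxygen, while complexes I, III and IV pump protons across the inner mitochondrial membrane. Complex V, the ATP synthase, lets the protons flow back through its membrane part (Fo) and makes ATP in its head (F1). Most subunits are made in the cytosol from nuclear genes, but the central membrane subunits of complexes I, III, IV and V come from mitochondrial DNA, so the complexes need both genomes, and complex II is wholly nuclear.

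Library totals lay between 17669006 and 21350111 counts, at which 3 counts correspond to 0.139 to 0.174 CPM (counts relative to library sizes scaled by TMM). Subunits made in mitochondrial DNA took 1.20% to 1.49% of the counts and the nuclear ones 0.568% to 0.685%. A single gene without a symbol, ENSMUSG00000119584, held 5.10% of all counts in the second glass library and 0.947% to 2.90% in the other 5. All 10 fibroblast markers were tested, and their summed level was 28300 to 29500 CPM on 1 kPa, 30900 to 32200 CPM on 20 kPa and 19600 to 21000 CPM on glass. On 1 kPa 9 of them rose against glass and 1 fell, where 23% of all tested genes rose and 22% fell. Vim went against the sum, with 2131 and 2250 CPM on 1 kPa, 2762 and 2681 CPM on 20 kPa, and 4294 and 4090 CPM on glass. The summed markers of adipocytes and chondrocytes, other cells that an ear culture could hold, were also higher on the gels. Those of brown and white adipocytes, 4 of 8 tested, summed to 95.4 to 106 CPM on 1 kPa, 56.8 to 59.7 CPM on 20 kPa and 20.9 to 25.3 CPM on glass, led by Fabp4 and Pparg, with Ucp1 and Lep at 0 counts in every library. Those of chondrocytes, 8 of 8 tested, with Col2a1 and Sox9 at the highest level, summed to 841 to 863 CPM on 1 kPa, 1430 to 1490 CPM on 20 kPa and 554 to 588 CPM on glass. Sox9 itself fell on each gel against glass (log2 fold changes -0.80 on 1 kPa and -0.18 on 20 kPa). Of 5 tested keratinocyte markers, 3 (Krt5, Krt14 and Dsp) fell on each gel and Trp63 rose. Over all tested genes, 22% fell on 1 kPa and 19.6% on 20 kPa. Skeletal muscle, keratinocyte, leukocyte, endothelial, and Schwann cell and melanocyte lists each stayed at or under 56.5 CPM in every library. Their sums too were higher on both gels than on glass. From glass to 1 kPa, muscle went from 16.8 to 18.6 CPM up to 44.1 to 45.4 CPM, and leukocytes from 17.1 to 18.0 CPM up to 56.5 CPM. Much of the leukocyte sum was Cd14, with 5.59 and 4.93 CPM on glass and 41.3 and 43.8 CPM on 1 kPa. Of 6 tested leukocyte markers 2 rose on 1 kPa (33.3%, beside 23% of all tested genes), and 3 had a negative fold change. Endothelial markers went from 15.8 to 16.7 CPM up to 31.8 to 35.1 CPM, and Schwann cell and melanocyte markers from 18.3 to 18.5 CPM up to 37.4 to 37.9 CPM. The part of these cells in the results was not tested, and in bulk RNA fewer cells of a type and less RNA per cell cannot be told apart.

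Nuclear subunit mRNAs were lower on 1 kPa than on glass in all 5 complexes, by a small step, and those of 20 kPa lay between. Their summed level was 5823 and 5730 CPM on 1 kPa, 5937 and 6234 CPM on 20 kPa, and 6730 and 7015 CPM on glass. No library of either gel reached a glass library. The mean sum on 1 kPa (5777 ± 65.3 CPM, SD, n = 2) and that on 20 kPa (6086 ± 211 CPM) differed from that on glass (6873 ± 201.6 CPM) by -16% and -11.4%. On 1 kPa the difference from glass was -12.5% for complex I, -12.7% for complex II, -11.4% for complex III, -19.8% for complex IV and -18% for complex V, and on 20 kPa it was -7.16%, -9.45%, -7.21%, -12.7% and -14.8%. The mitochondrially encoded sum was not separated in this way, with 14610 and 12020 CPM on 1 kPa, 13890 and 13920 CPM on 20 kPa, and 12970 and 15240 CPM on glass. Its means ran in the same order but with a wide spread (13320 ± 1831, 13900 ± 18.1 and 14100 ± 1599 CPM). They differed from glass by -5.53% on 1 kPa and -1.42% on 20 kPa. Both 20 kPa libraries and 1 kPa replicate 1 lay between the glass libraries. The ratio of the nuclear to the mitochondrially encoded sum was 0.399 and 0.477 on 1 kPa, 0.427 and 0.448 on 20 kPa, and 0.519 and 0.460 on glass. Both 20 kPa ratios lay below both glass ratios, and the 1 kPa ratios enclosed those of 20 kPa and overlapped glass.

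**Figure D1:**
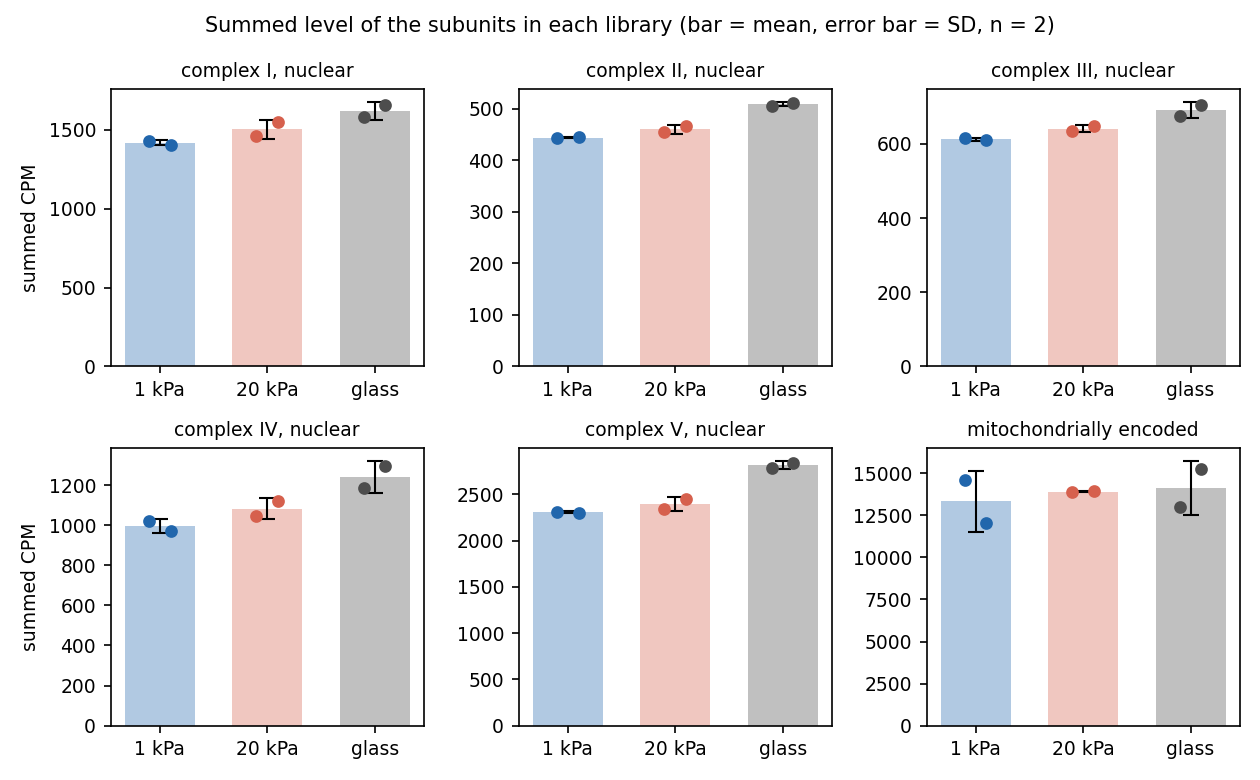
Summed CPM of the subunits in each library, by complex for the nuclear-encoded subunits and over the 13 mitochondrially encoded ones; bars are means, error bars the SD of 2 libraries and points the libraries. The nuclear sums of each complex are lowest on 1 kPa and highest on glass with no overlap between glass and the gels, whereas the mitochondrially encoded sum on 1 kPa spans 12020 to 14610 CPM and overlaps glass.

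Against glass, 43 of 93 tested members fell on 1 kPa and 3 rose, at an adjusted p below 0.05 in edgeR. Over all 16093 tested genes, 45% passed in this comparison, 22% lower and 23% higher. Among the 78 tested nuclear subunits, 41 fell (52.6%) and 2 rose (2.56%), with a median log2 fold change of -0.21, beside 0.00 over all tested genes. In 41 of these 43 no 1 kPa library fell within the range of glass or the reverse. Over all tested genes, called or not, the same was true of 71%, which is no like measure, since the 43 are called genes only. None of the 43 fell 2-fold or more, and 69 of the 78 had a negative fold change. The count of members that fell was 28 without 1 kPa replicate 2, 37 without glass replicate 2 and 48 without glass replicate 1. The count that rose was 6 without glass replicate 2. The call held under all 16 alternative fits for 21 of the 43 that fell. Reads of 21 members can be shared with a near-identical copy or an overlapping gene. Among those named below these include Ndufs3, Uqcrb, Cox7c, mt-Co1, mt-Nd4 and all of the thinly counted mitochondrial genes. Of the 66 tested nuclear subunits without this doubt, 36 fell and 2 rose.

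**Figure D2:**
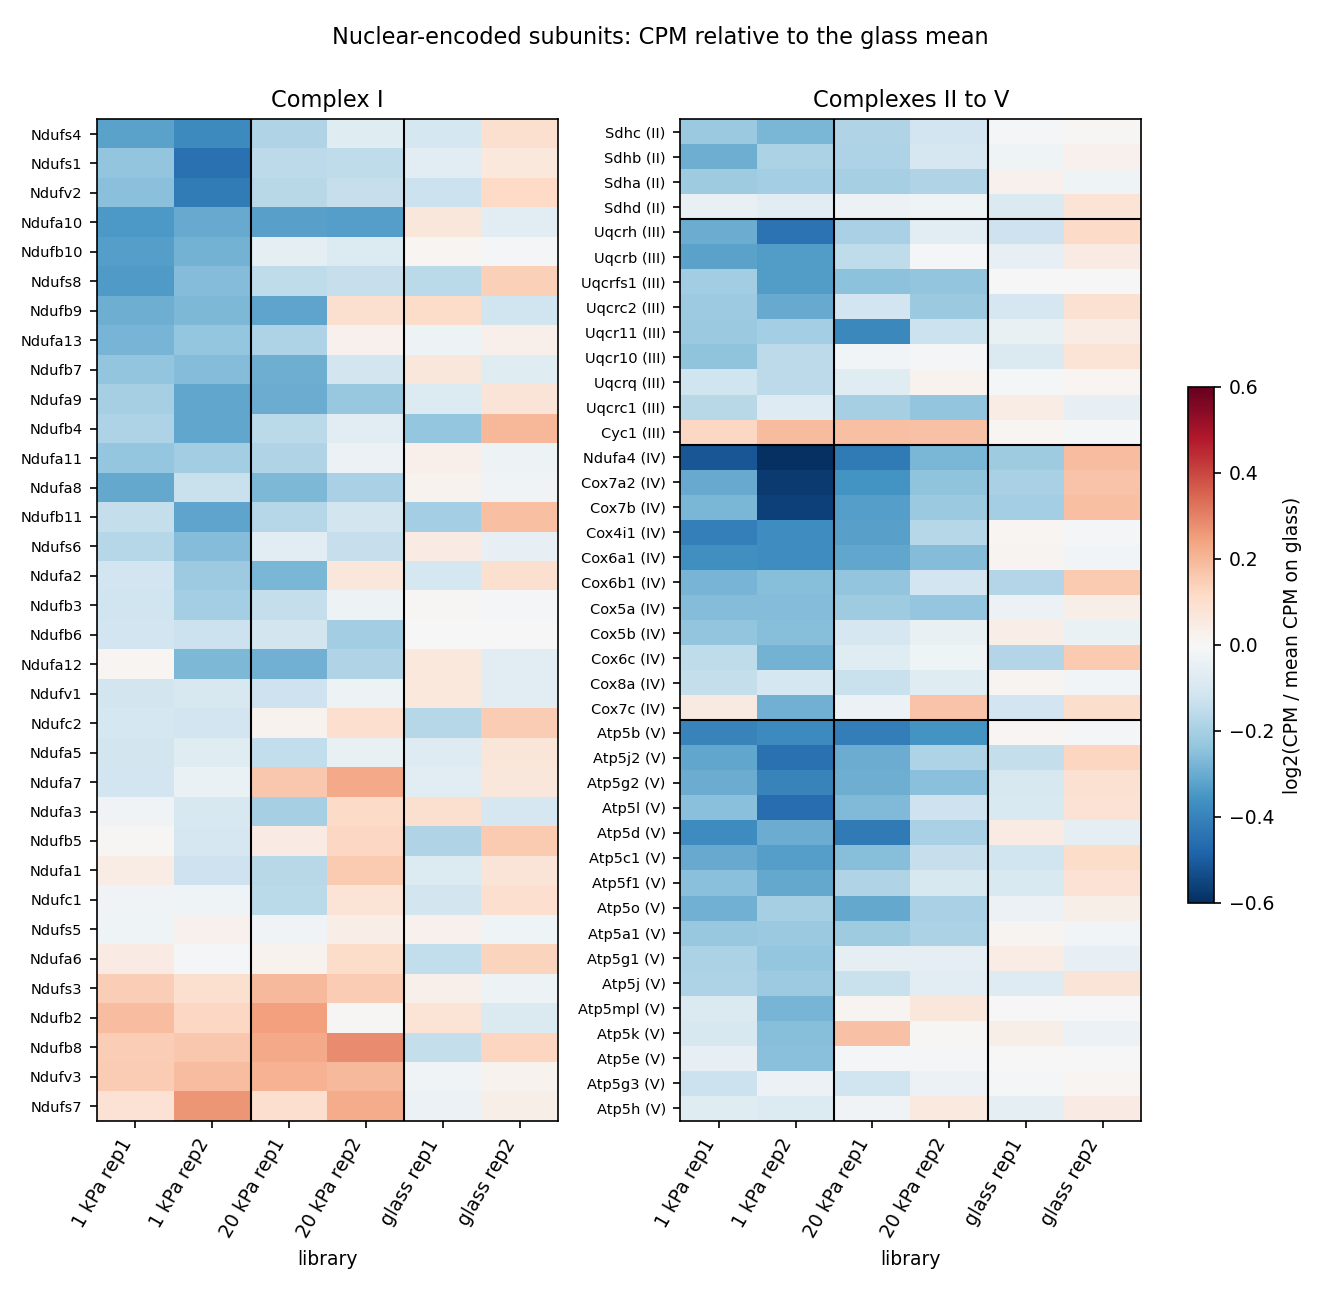
Heat map of 74 widely expressed nuclear subunits in the 6 libraries, coloured by log2 of CPM over the mean CPM on glass, with complex I left and complexes II to V right, each complex sorted by its mean on 1 kPa. Ndufs1, Ndufa4 and Atp5b are blue in both 1 kPa libraries, while Ndufs7, Ndufv3 and Cyc1 are red.

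Complex I holds 35 tested nuclear subunits, of which 13 fell on 1 kPa (37.1%) and 0 rose, with a median of -0.16. The 22% of all tested genes that fell on 1 kPa stands beside this count and those of the other complexes below. At an unadjusted p below 0.05 there were 17, rises among them. No rise passed in DESeq2 or limma-voom, and that of Ndufv3 passed under a stricter filter (0.18, adjusted p = 0.0487). Of the 7 nuclear core subunits, which carry the flavin, the iron-sulphur clusters and the quinone site, 4 fell, with a median of -0.30. Of 28 accessory subunits, 9 fell (32.1%), with a median of -0.14. Ndufs1, which holds iron-sulphur clusters of the NADH arm, had 73.4 and 63.4 CPM on 1 kPa, 77.6 and 78.0 CPM on 20 kPa, and 82.8 and 90.3 CPM on glass (1 kPa against glass -0.34, SE 0.07, adjusted p = 0.00027). Ndufs4, an accessory subunit of that arm, had 35.5 and 34.1 CPM on 1 kPa, 39.2 and 42.2 CPM on 20 kPa, and 41.3 and 47.5 CPM on glass (-0.35, SE 0.08, adjusted p = 0.00113). For both genes 1 kPa was lowest. The 20 kPa libraries lay between the other substrates for Ndufs1 and overlapped glass for Ndufs4, and neither gene passed between the gels. Ndufs3, Ndufs7, Ndufv3, Ndufb2 and Ndufb8 had means above glass on 1 kPa with all libraries and the usual filter, with log2 fold changes of 0.12 to 0.18, and none passed the test there. Ndufs7, another iron-sulphur core subunit, had 43.5 and 49.2 CPM on 1 kPa and 39.9 and 41.9 CPM on glass, which did not overlap, at an adjusted p of 0.0713.

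Complex II, the succinate dehydrogenase, has 4 subunits, and 3 of them fell on 1 kPa. Sdha, the flavoprotein that oxidises succinate, had 192 and 193 CPM on 1 kPa, 194 and 197 CPM on 20 kPa, and 227 and 219 CPM on glass. Sdhb, the iron-sulphur subunit, had 62.8 and 67.4 CPM on 1 kPa, 67.8 and 71.8 CPM on 20 kPa, and 75.6 and 78.3 CPM on glass. Sdhc, a membrane anchor, had 104 and 100.3 CPM on 1 kPa, 107 and 112 CPM on 20 kPa, and 121 and 122 CPM on glass. In these 3 genes each glass library was above each gel library, with falls on 1 kPa of 0.21, 0.24 and 0.25 on the log2 scale (log2 fold changes -0.21, -0.24 and -0.25, SE 0.06, 0.07 and 0.06, adjusted p = 0.00284, 0.00404 and 0.00118). Without 1 kPa replicate 1 the adjusted p of Sdha was 0.0512 and that of Sdhb 0.112. Sdhd, the other anchor, had 84.6 and 83.3 CPM on 1 kPa, 85.3 and 85.9 CPM on 20 kPa, and 82.2 and 92.6 CPM on glass, where the glass libraries enclosed all others.

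In complex III, 5 of 9 nuclear subunits fell on 1 kPa and 1 rose, with a median of -0.21. Uqcrh, the hinge protein beside cytochrome c1, had 74.9 and 67.8 CPM on 1 kPa, 80.5 and 88.1 CPM on 20 kPa, and 84.4 and 99.7 CPM on glass (1 kPa against glass -0.36, SE 0.07, adjusted p = 0.000196). Uqcrfs1, the Rieske iron-sulphur protein that takes electrons from ubiquinol, had 71.1 and 65.1 CPM on 1 kPa, 69.3 and 69.6 CPM on 20 kPa, and 81.8 and 82.3 CPM on glass (-0.27, SE 0.07, adjusted p = 0.00134, and 0.0798 without 1 kPa replicate 2). The 20 kPa level lay near glass for Uqcrh and near 1 kPa for Uqcrfs1. Cyc1, the cytochrome c1 that hands electrons on, moved the other way. It had 90.0 and 94.2 CPM on 1 kPa, 93.6 and 93.3 CPM on 20 kPa, and 83.0 and 82.0 CPM on glass, so that every gel library was above both glass libraries. The rise was 0.16 on 1 kPa (SE 0.06, adjusted p = 0.0404) and 0.18 on 20 kPa (SE 0.06, adjusted p = 0.0206). On 1 kPa its adjusted p was 0.0523 to 0.303 with any 1 of the 6 libraries left out, and it was lost in DESeq2 (0.145).

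Complex IV, cytochrome c oxidase, had the lowest median on 1 kPa. Of its 11 widely expressed nuclear subunits, 9 fell, with a median of -0.26. Ndufa4, first found with complex I and since assigned to complex IV, showed the largest fall of any member; it lies on chromosome 6 from 11900292 to 11907497 (minus strand). It had 77.9 and 66.9 CPM on 1 kPa, 83.0 and 92.0 CPM on 20 kPa, and 96.0 and 127 CPM on glass. The 3 groups did not overlap, although the glass libraries stood far apart, and the level fell by 34.7% on 1 kPa (log2 fold change -0.61, SE 0.09, adjusted p = 1.22e-06). Cox4i1, the main form of subunit 4, had 183 and 188 CPM on 1 kPa, 194 and 216 CPM on 20 kPa, and 245 and 241 CPM on glass (1 kPa against glass -0.39, SE 0.06, adjusted p = 2.81e-06). Cox6a1, an accessory subunit, had 159 and 158 CPM on 1 kPa, 165 and 171 CPM on 20 kPa, and 207 and 202.03 CPM on glass (-0.37, SE 0.06, adjusted p = 2.8e-06). In both genes 1 kPa was lowest and glass highest, and the 20 kPa libraries of Cox4i1 stood apart from each other. Cox7a2, another small accessory subunit, had 60.5 and 50.1 CPM on 1 kPa, 58.2 and 63.1 CPM on 20 kPa, and 65.3 and 83.9 CPM on glass (-0.42, SE 0.09, adjusted p = 0.000326). Cox7b, of like size, had 57.7 and 47.3 CPM on 1 kPa, 55.5 and 59.8 CPM on 20 kPa, and 60.5 and 79.1 CPM on glass (-0.40, SE 0.09, adjusted p = 0.000824). Cox7b missed the threshold without glass replicate 2 (0.0654), without 1 kPa replicate 2 (0.0636) and in DESeq2 (0.0926). Cox8a and Cox7c did not pass (log2 fold changes -0.13 and -0.10, adjusted p = 0.0843 and 0.394).

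Of the 16 tested nuclear subunits of complex V, 11 fell on 1 kPa, and all 16 had a negative fold change (median -0.23). In the F1 head, 4 of 5 fell. Atp5b, the catalytic beta subunit, had 676 and 685 CPM on 1 kPa, 669.5 and 695 CPM on 20 kPa, and 898 and 884 CPM on glass. Both gels were alike and both lay below glass, with log2 fold changes of -0.39 on 1 kPa (SE 0.06, adjusted p = 1.07e-06) and -0.39 on 20 kPa (SE 0.06, adjusted p = 1.42e-06). Atp5a1, the alpha subunit, had 500.1 and 501 CPM on 1 kPa, 506 and 514 CPM on 20 kPa, and 592 and 579.5 CPM on glass (1 kPa against glass -0.23, SE 0.06, adjusted p = 0.0012). Atp5c1 (gamma) and Atp5d (delta), parts of the central stalk, also fell, by 0.31 and 0.34 on the log2 scale (-0.31 and -0.34, adjusted p = 0.000311 and 0.000105), whereas Atp5e (epsilon) did not pass (-0.14, adjusted p = 0.116). In the membrane part and outer stalk, 7 of 11 fell, among them Atp5j2 (subunit f), with 70.2 and 63.9 CPM on 1 kPa, 70.9 and 76.6 CPM on 20 kPa, and 79.0 and 95.4 CPM on glass (-0.37, SE 0.08, adjusted p = 0.000188).

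**Figure D3:**
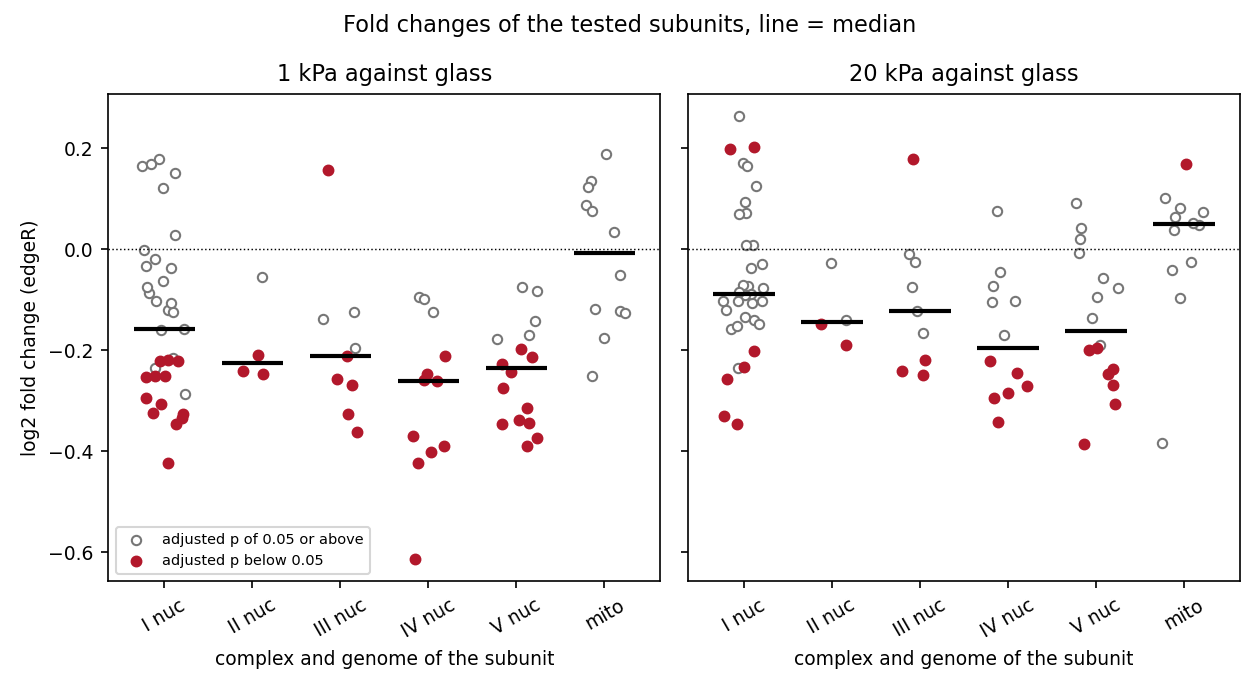
Log2 fold changes (edgeR) of the tested subunits against glass on 1 kPa (left) and 20 kPa (right), by complex for nuclear subunits and together for mitochondrially encoded ones; filled points passed the test, lines are medians, and the thinly expressed Cox4i2 and Cox7a1 of complex IV are left out. Nuclear medians lie below 0 in each complex on both gels. The mitochondrially encoded medians are -0.01 and 0.05, and over the 7 deeply counted genes alone they are -0.12 and 0.05.

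The c ring of the ATP synthase, which turns as protons pass, is encoded by 3 genes that give the same mature protein. Atp5g1 had 72.6 and 70.6 CPM on 1 kPa, 79.8 and 79.9 CPM on 20 kPa, and 85.6 and 80.3 CPM on glass. Atp5g2 had 79.5 and 74.2 CPM on 1 kPa, 80.0 and 82.3 CPM on 20 kPa, and 91.5 and 104 CPM on glass. Atp5g3 had 126 and 135 CPM on 1 kPa, 127 and 135 CPM on 20 kPa, and 137 and 139 CPM on glass. In each gene both gel groups lay below the glass libraries. On 1 kPa the call was made for Atp5g1 (-0.21, SE 0.06, adjusted p = 0.00794) and Atp5g2 (-0.35, SE 0.07, adjusted p = 0.000113) and not for Atp5g3 (-0.08, SE 0.06, adjusted p = 0.279). Atp5g1 missed the threshold without glass replicate 1 (0.0564) and without 1 kPa replicate 2 (0.108). Shares of the family were taken per joined length of all annotated exons (4912 nt for Atp5g1, 1675 nt for Atp5g2 and 2181 nt for Atp5g3). Atp5g3 gave 49.7% ± 2.23 on 1 kPa, 48.1% ± 0.665 on 20 kPa and 45.7% ± 1.21 on glass (SD, n = 2). Atp5g2 gave 38.2% ± 1.96, 38.8% ± 0.313 and 42.1% ± 2.23 in that order of substrates, and Atp5g1 gave 12.1% to 13.0% on average. The low share of Atp5g1 comes from its long exon length, since its CPM were not far from those of Atp5g2.

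On 20 kPa fewer members passed against glass: 24 of 93 fell and 5 rose, where 41.8% of all tested genes passed, 19.6% lower and 22.3% higher. Of the 78 nuclear subunits 23 fell (29.5%) and 3 rose, with a median of -0.10. The libraries did not overlap in any of these 26 called genes, nor in 67.5% of all tested genes, called or not. By complex, 5 of 35 fell in complex I, 2 of 4 in complex II, 3 of 9 in complex III, 6 of 14 in complex IV and 7 of 16 in complex V, with medians of -0.09, -0.14, -0.12, -0.14 and -0.16. The F1 head again had 4 of 5 lower, led by Atp5b. Without 20 kPa replicate 1 the count of members that fell was 8, without glass replicate 2 it was 16 and without glass replicate 1 it was 35. The call held under all 16 alternative fits for 7 of the 24, among them Ndufa10, Uqcrfs1, Cox6a1, Atp5b, Atp5g2 and Cox7a2l.

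Among the larger falls on 20 kPa, beside Atp5b, were those of Ndufa4 (-0.34, SE 0.09, adjusted p = 0.00204) and of Ndufa10, an accessory complex I subunit of the matrix arm. Ndufa10 had 58.2 and 59.9 CPM on 1 kPa, 58.9 and 58.7 CPM on 20 kPa, and 77.3 and 70.4 CPM on glass (20 kPa against glass -0.33, SE 0.07, adjusted p = 0.000225). Its 4 gel libraries were close to each other and all below glass. The fall of Ndufa4 on 20 kPa missed the threshold without glass replicate 2 (0.169), without 20 kPa replicate 1 (0.0875) and in DESeq2 (0.159). Beside Cyc1, the subunits that rose were Ndufv3 and Ndufa7, both accessory subunits of complex I. Ndufv3 had 43.4 and 44.5 CPM on 1 kPa, 45.2 and 44.7 CPM on 20 kPa, and 38.5 and 39.7 CPM on glass (20 kPa against glass 0.20, SE 0.08, adjusted p = 0.0316). Ndufa7 had 44.4 and 46.9 CPM on 1 kPa, 53.9 and 56.3 CPM on 20 kPa, and 45.9 and 50.4 CPM on glass (0.20, SE 0.07, adjusted p = 0.0328). Ndufa7 was thus highest on 20 kPa, with the other substrates overlapping. These rises, with that of the mitochondrial mt-Nd2, were weakly held: the count that rose was 1 in DESeq2, 1 without 20 kPa replicate 1, 1 without 20 kPa replicate 2, 1 without 1 kPa replicate 2, 2 without glass replicate 1 and 10 without glass replicate 2.

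In complex II on 20 kPa, Sdha and Sdhc passed (-0.19 and -0.15, SE 0.06 and 0.06, adjusted p = 0.00709 and 0.0482), and Sdhb and Sdhd did not (-0.14 and -0.03, adjusted p = 0.0951 and 0.779). Sdha missed the threshold without 20 kPa replicate 1 (0.0774). Sdhc missed it with any 1 of the 6 libraries left out, at 0.0582 to 0.306. In complex IV, Cox4i1 (-0.24, SE 0.06, adjusted p = 0.0012) and Cox6a1 (-0.28, SE 0.06, adjusted p = 0.000124) fell on 20 kPa as well, the first with an adjusted p of 0.0932 without 20 kPa replicate 1.

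Between the gels, the 20 kPa level was mostly slightly higher than that on 1 kPa. Of 93 members, 6 were higher on 20 kPa and 2 lower, with 18.9% of all tested genes called, 8.94% higher and 9.92% lower. The median over nuclear subunits was 0.09. The libraries of all 8 called members did not overlap, nor did those of 60.1% of all tested genes, called or not. Higher on 20 kPa were Ndufa7 (0.27, SE 0.07, adjusted p = 0.00894), Ndufa4 (0.27, SE 0.09, adjusted p = 0.0321), Uqcrb, a small complex III subunit (0.25, SE 0.08, adjusted p = 0.035), Uqcrh (0.24, SE 0.08, adjusted p = 0.023), Ndufb10 (0.24, SE 0.07, adjusted p = 0.0232) and Atp5s. Uqcrb had 34.1 and 37.7 CPM on 20 kPa and 30.3 and 29.98 CPM on 1 kPa, and Ndufb10, in the membrane arm of complex I, 48.0 and 47.2 CPM on 20 kPa and 39.7 and 41.1 CPM on 1 kPa. No subunit of complex II or V passed, with 0 and 4 at an unadjusted p below 0.05 in edgeR and 0 past the threshold in DESeq2 and limma-voom. Atp5g1 of complex V did pass as higher on 20 kPa with library totals (0.0478), with only the 2 groups compared (0.0384), without glass replicate 1 (0.0378) and without glass replicate 2 (0.0379). None of the 6 rises held under all 16 alternative fits. Their count was 0 without 20 kPa replicate 2 and in DESeq2, 1 without 1 kPa replicate 2, 17 without glass replicate 1 and 16 without glass replicate 2. With library totals in place of TMM, 16 members were higher and 2 lower, and over all genes 1945 were higher and 1253 lower, beside 1438 and 1597 with TMM.

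Across the 3 substrates together, 46 of 93 members differed, where 51.2% of all tested genes did, and 43 of the 78 nuclear subunits. In 50 of the 78 the mean level ran upward in the order 1 kPa, 20 kPa, glass. In 14 the mean was highest and in 10 lowest on 20 kPa, and 4 had another order. Most neighbours in this order were not separated, since 72 of the 78 did not pass between the gels.

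Against this background of small falls stood 2 members that rose strongly on 1 kPa, both paralogues of subunits that fell there, of which Ndufa4l2 also rose on 20 kPa. Ndufa4l2 is a hypoxia-inducible relative of Ndufa4 that is known to lower complex I activity, and lies on chromosome 10 from 127514967 to 127517154 (GRCm38, plus strand). It had 142 and 145 CPM on 1 kPa, 51.5 and 52.4 CPM on 20 kPa, and 13.1 and 10.6 CPM on glass. The groups were far apart and in the order of softness. Its level was 11.99-fold that of glass on 1 kPa (log2 fold change 3.58, SE 0.08, adjusted p = 1.27e-24) and 4.36-fold on 20 kPa (2.12, SE 0.09, adjusted p = 2.54e-18). It was lower on 20 kPa than on 1 kPa (-1.46, SE 0.07, adjusted p = 3.93e-16). The call held under all 16 alternatives in each comparison. Per length of annotated exons, Ndufa4l2 made up 69.6% and 73.2% of the Ndufa4 pair on 1 kPa, 43.9% and 41.8% on 20 kPa, and 14.7% and 9.52% on glass. Ndufa4l2 was thus the more abundant of the pair on 1 kPa and the less abundant on 20 kPa and on glass.

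Cox4i2 encodes the alternative form of subunit 4 of complex IV, known from lung and from cells short of oxygen. It was thinly counted, with 59 and 33 counts on 1 kPa, 17 and 17 on 20 kPa, and 15 and 11 on glass, or 2.88 and 1.85 CPM, 0.829 and 0.823 CPM, and 0.694 and 0.638 CPM. The 1 kPa libraries differed from each other but stood above the rest. It rose 3.54-fold on 1 kPa against glass (log2 fold change 1.82, SE 0.38, adjusted p = 0.000225) and was lower on 20 kPa than on 1 kPa (-1.52, SE 0.36, adjusted p = 0.00274, and 0.145 without 1 kPa replicate 1). The comparison of 20 kPa with glass did not pass (0.30, SE 0.44, adjusted p = 0.628). Per length it made up 3.00% and 1.90% of the Cox4i pair on 1 kPa, 0.834% and 0.745% on 20 kPa, and 0.554% and 0.519% on glass, so Cox4i1 remained the main form in every library.

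**Figure D4:**
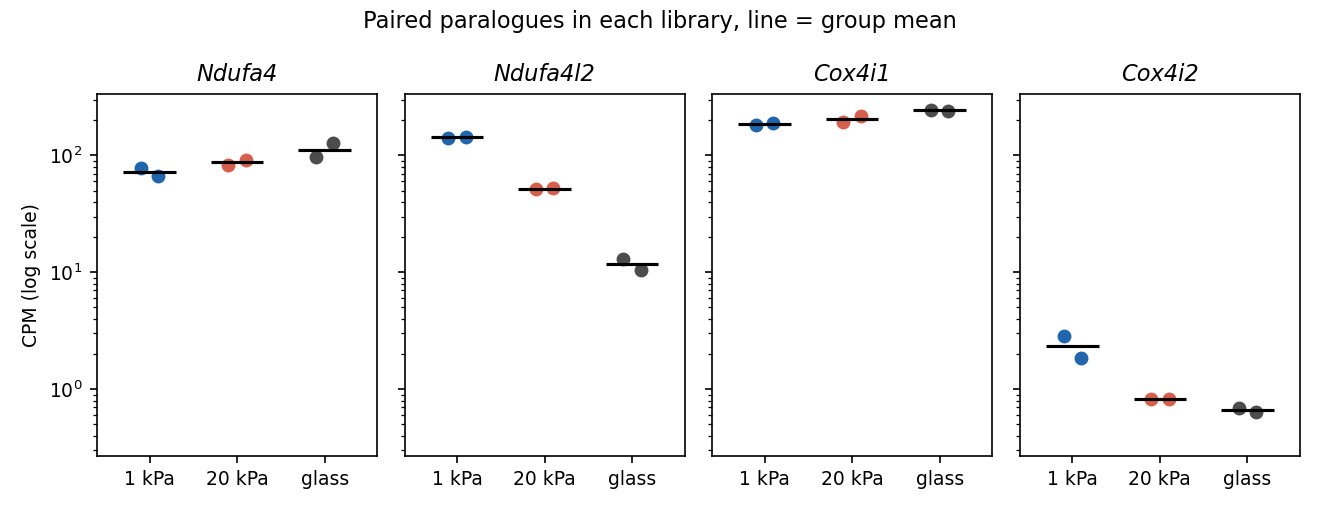
CPM on a log axis of Ndufa4, Ndufa4l2, Cox4i1 and Cox4i2 in each library, with the group mean as a line. Ndufa4l2 on 1 kPa (142 and 145 CPM) exceeds Ndufa4 (77.9 and 66.9 CPM), while Cox4i2 reaches at most 2.88 CPM.

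The other tissue-restricted isoforms of complex IV had few counts or none. Cox7a1, the heart and muscle form of subunit 7a, had 11 and 11 counts on 1 kPa, 10 and 7 on 20 kPa, and 5 and 5 on glass (1 kPa against glass 1.14, SE 0.61, adjusted p = 0.132). Cox6a2, the muscle form of subunit 6a, had 13 and 8 counts on 1 kPa, 7 and 7 on 20 kPa, and 10 and 5 on glass. Neither made up more than 2.13% of its family per length in any library. Cox6b2, a testis form, had 56 and 28 counts on 1 kPa, 37 and 52 on 20 kPa, and 47 and 43 on glass, with overlapping groups (-0.09, SE 0.30, adjusted p = 0.826). Cox8b had 1 count in 1 kPa replicate 2, 4 in 20 kPa replicate 1 and 0 in the other libraries, and Cox7b2 and Cox8c had 0 in all 6, below the floor of 3 counts. Their widely expressed partners were Cox6b1, with 77.6 and 78.8 CPM on 1 kPa, 79.8 and 86.9 CPM on 20 kPa, and 83.3 and 105 CPM on glass, and Cox8a, with 125 and 128 CPM, 126 and 131 CPM, and 139 and 136 CPM in the same order of substrates. Cox6b1 fell on 1 kPa (-0.26, SE 0.08, adjusted p = 0.0069), but not without glass replicate 2 (0.309).

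Of the members that are no subunits, Cox7a2l had 98.1 and 103 CPM on 1 kPa, 101 and 109 CPM on 20 kPa, and 123 and 136 CPM on glass. Both gels lay below glass (-0.36, SE 0.06, adjusted p = 3.48e-05 on 1 kPa, and -0.30, SE 0.06, adjusted p = 0.000322 on 20 kPa). Atp5s, named as a coupling factor of the ATP synthase, had 6.09 and 5.60 CPM on 1 kPa, 7.80 and 9.01 CPM on 20 kPa, and 6.98 and 8.76 CPM on glass. It was lowest on 1 kPa, with a fall against glass (-0.41, SE 0.16, adjusted p = 0.0393) and a higher level on 20 kPa than on 1 kPa (0.52, SE 0.16, adjusted p = 0.0208). The call against glass was lost without glass replicate 2 (0.298), without 1 kPa replicate 1 (0.0708), without 1 kPa replicate 2 (0.178), in DESeq2 (0.19), in limma-voom (0.062) and with only the 2 groups compared (0.0568). The call between the gels was lost without 1 kPa replicate 1 (0.0544), without 1 kPa replicate 2 (0.155), without 20 kPa replicate 2 (0.197) and in DESeq2 (0.16).

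None of the 12 tested mitochondrially encoded subunits passed on 1 kPa against glass or between the gels. That held in each of limma-voom, DESeq2 and edgeR, and in edgeR 1 gene had an unadjusted p below 0.05 in each comparison. It did not hold in edgeR with no filter on low counts, where mt-Co1, mt-Cytb, mt-Nd5 and mt-Nd6 passed as lower (adjusted p = 0.00959, 0.0306, 0.0485 and 0.00495) and mt-Nd2 as higher (0.0359) on 1 kPa, and mt-Nd4 and mt-Nd5 as higher on 20 kPa than on 1 kPa (0.0149 and 0.00353). With library totals, mt-Nd6 passed as lower on 1 kPa (0.0326) and mt-Nd5 as higher on 20 kPa than on 1 kPa (0.0448). Over the 12 tested, the median log2 fold changes were -0.01 on 1 kPa against glass, 0.05 on 20 kPa against glass and 0.02 between the gels. Over the 7 deeply counted genes alone they were -0.12, 0.05 and 0.10 in that order. Of these 7, 5 had a negative fold change on 1 kPa against glass and 2 a positive one. Deeply counted were mt-Nd1, mt-Nd2, mt-Nd4, mt-Nd5 and mt-Nd6, membrane subunits of complex I, mt-Cytb, the cytochrome b of complex III, and mt-Co1, the catalytic subunit of complex IV. The last had 6562 and 5450 CPM on 1 kPa, 6070 and 6186 CPM on 20 kPa, and 6038 and 7076 CPM on glass. Its 20 kPa libraries lay inside the glass range and its 1 kPa libraries on either side of the lower glass library (1 kPa against glass -0.13, SE 0.08, adjusted p = 0.205). The spread within a group was common to these genes: 1 kPa replicate 1 was above replicate 2, and glass replicate 2 above replicate 1, in each of the 7.

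For mt-Cytb the values were 2377 and 1942 CPM on 1 kPa, 2309 and 2307 CPM on 20 kPa, and 2198 and 2503 CPM on glass. For mt-Nd1 they were 1767 and 1448 CPM on 1 kPa, 1578 and 1609 CPM on 20 kPa, and 1388 and 1640 CPM on glass. For mt-Nd5 they were 1550 and 1236 CPM on 1 kPa, 1614 and 1512 CPM on 20 kPa, and 1376 and 1649 CPM on glass. In these 3 genes both gels overlapped glass. For mt-Nd4 there were 983 and 797 CPM on 1 kPa, 983 and 995 CPM on 20 kPa, and 823 and 1022 CPM on glass. For mt-Nd6, the only one of these on the other strand of the mitochondrial genome, there were 490.4 and 398 CPM on 1 kPa, 486 and 489.6 CPM on 20 kPa, and 455 and 549.5 CPM on glass. Nothing states whether the counting used strand, and without it reads of mt-Nd6 cannot be told from antisense ones. For mt-Nd2 there were 850.2 and 718 CPM on 1 kPa, 819 and 787 CPM on 20 kPa, and 669 and 759.7 CPM on glass. Only here did 20 kPa stand above both glass libraries, and it passed narrowly (0.17, SE 0.07, adjusted p = 0.0496), with 0.392 in DESeq2, 0.273 without 20 kPa replicate 1, 0.109 without 20 kPa replicate 2, 0.0639 without 1 kPa replicate 2 and 0.347 without glass replicate 1.

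The calls of these genes depended also on the libraries kept. Without glass replicate 1, 5 of them (mt-Co1, mt-Cytb, mt-Nd4, mt-Nd5 and mt-Nd6) passed as lower on 1 kPa, with log2 fold changes of -0.31 to -0.20 and adjusted p of 0.000306 to 0.0158. Without glass replicate 2, mt-Nd1, mt-Nd2, mt-Co2 and mt-Atp6 passed as higher on 1 kPa, at 0.21 to 0.51 and adjusted p of 0.00386 to 0.0411. Without 1 kPa replicate 1, 5 passed as lower (mt-Co1, mt-Cytb, mt-Nd3, mt-Nd5 and mt-Nd6, -0.80 to -0.27), and without 1 kPa replicate 2 mt-Nd2 passed as higher (0.25). On 20 kPa against glass, mt-Co1 and mt-Nd6 passed as lower without glass replicate 1 (-0.21 to -0.17), and mt-Co2, mt-Nd1, mt-Nd4 and mt-Nd5 as higher without glass replicate 2 (0.18 to 0.52). Between the gels, 3 of them (mt-Nd4, mt-Nd5 and mt-Nd6) passed as higher on 20 kPa without 1 kPa replicate 1, at 0.30 to 0.34, and mt-Nd4 and mt-Nd5 without either glass library, at 0.15 to 0.17.

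The other 6 mitochondrially encoded genes were thinly counted. mt-Co2 had 137 and 134 counts on 1 kPa, 144 and 148 on 20 kPa, and 107 and 158 on glass, against 97242 to 134654 counts of mt-Co1, its partner in the core of complex IV. mt-Co3, the third core subunit, had 183 and 191 counts on 1 kPa, 191 and 205 on 20 kPa, and 172 and 186 on glass. mt-Atp6, which forms the proton channel of complex V, had 166 and 168 on 1 kPa, 165 and 164 on 20 kPa, and 138 and 157 on glass. For mt-Co2 the glass libraries enclosed those of both gels. None of these 3 genes passed in any comparison with all libraries and the usual filter, and the counts given are not scaled to library size. mt-Nd3 had 117 and 54 counts on 1 kPa, 89 and 77 on 20 kPa, and 129 and 77 on glass, mt-Nd4l had 31 to 39 in every library, and mt-Atp8 1 to 3. Each of mt-Co2, mt-Co3, mt-Atp6, mt-Nd3 and mt-Nd4l is matched, at 98% identity or more over 99.0% to 99.9% of its length, by an annotated nuclear copy on chromosome 1. The copies were counted too: over all libraries, 970 counts fell on the copy of mt-Co2 and 828 on the gene, 865 and 1128 for mt-Co3, 1177 and 958 for mt-Atp6, 43 and 543 for mt-Nd3, and 117 and 208 for mt-Nd4l. Copies that match only 31.3% of mt-Co1 and 63.6% of mt-Nd4 had 643 counts beside 736760 and 382 beside 110520. Nothing states how reads matching both places were assigned. The levels of these 5 genes are uncertain. Apart from entering sums and medians over all mitochondrially encoded genes, they were not set beside those of the other genes as a measure of their RNA.

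**Figure D5:**
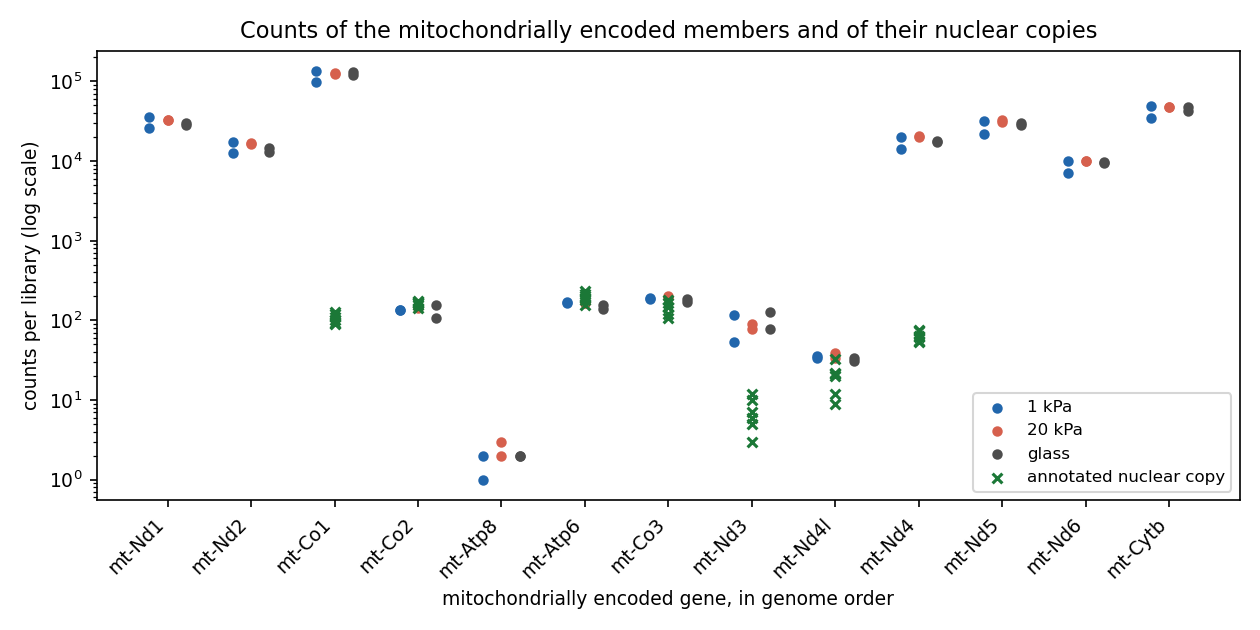
Counts per library (log axis) of the 13 mitochondrially encoded genes in genome order, coloured by substrate, with crosses for the counts of annotated nuclear copies in the same 6 libraries. The deeply counted 7 reach from 7106 to 134654 counts, and mt-Co2, mt-Co3 and mt-Atp6 lie at 107 to 205 counts, in the range of their copies.

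Levels among nuclear subunits, compared per kilobase of exon and averaged over the 6 libraries, were highest for Cox6a1 (252 RPKM), Cox8a (211 RPKM), Atp5b (177 RPKM), Atp5a1 (170 RPKM) and Cox4i1 (136 RPKM), all of complexes IV and V. The lowest of the widely expressed were Ndufb2 (1.18 RPKM) and Ndufb8 (2.79 RPKM). This order depends on the annotated exon length, which was 702 nt for Cox6a1, 619 nt for Cox8a, 4237 nt for Atp5b and 5628 nt for Ndufb2. In counts over all libraries Atp5b (88845) stood above Cox6a1 (20949). Replicates of a group differed in a way shared by many subunits. Over 75 nuclear subunits the median log2 ratio of replicate 2 to replicate 1 was -0.02 on 1 kPa, 0.07 on 20 kPa and 0.07 on glass, and replicate 2 was higher for 29, 63 and 46 of them in that order of substrates. On glass the ratio reached from -0.23 to 0.43.

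The start regions of genes that moved together were searched for motifs bound by regulators of respiratory genes. RefSeq windows of 300 bases (250 before and 50 after each start, GRCm38.p6) were found for 68 of 85 nuclear member symbols, 73 windows in all. None was found for Ndufa4l2, Cox4i2 or Cyc1, so no motif share below includes these members that rose. Shown are windows of 4 members that fell on 1 kPa, with motif letters in capitals: Cox6a1 and Atp5g2, which hold an NRF1 core, Atp5j2, which holds a YY1 core, and Ndufa4, which fell most and holds none of the motifs searched. Their positions are chr5:115348909-115349208 for Cox6a1, chr15:102670998-102671297 for Atp5g2, chr5:145191492-145191791 for Atp5j2 and chr6:11907401-11907700 for Ndufa4, all on the minus strand and written in the direction of the gene.
Cox6a1: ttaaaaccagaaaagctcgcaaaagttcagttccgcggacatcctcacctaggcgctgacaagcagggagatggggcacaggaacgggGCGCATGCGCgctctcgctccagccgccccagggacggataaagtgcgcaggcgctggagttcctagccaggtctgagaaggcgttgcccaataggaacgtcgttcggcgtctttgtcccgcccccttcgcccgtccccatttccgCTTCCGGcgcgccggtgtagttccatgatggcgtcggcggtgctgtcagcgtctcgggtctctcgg
Atp5g2: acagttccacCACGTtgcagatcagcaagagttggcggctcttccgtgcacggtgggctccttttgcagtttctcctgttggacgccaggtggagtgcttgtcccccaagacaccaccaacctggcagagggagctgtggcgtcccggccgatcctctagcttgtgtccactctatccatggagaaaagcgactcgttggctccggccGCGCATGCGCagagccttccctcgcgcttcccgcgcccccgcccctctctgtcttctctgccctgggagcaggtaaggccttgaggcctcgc
Atp5j2: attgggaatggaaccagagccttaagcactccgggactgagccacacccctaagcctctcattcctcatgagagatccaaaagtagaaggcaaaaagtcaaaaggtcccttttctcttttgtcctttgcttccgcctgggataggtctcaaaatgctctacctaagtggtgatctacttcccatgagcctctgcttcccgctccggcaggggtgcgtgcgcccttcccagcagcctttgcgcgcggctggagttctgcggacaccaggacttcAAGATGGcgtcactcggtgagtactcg
Ndufa4: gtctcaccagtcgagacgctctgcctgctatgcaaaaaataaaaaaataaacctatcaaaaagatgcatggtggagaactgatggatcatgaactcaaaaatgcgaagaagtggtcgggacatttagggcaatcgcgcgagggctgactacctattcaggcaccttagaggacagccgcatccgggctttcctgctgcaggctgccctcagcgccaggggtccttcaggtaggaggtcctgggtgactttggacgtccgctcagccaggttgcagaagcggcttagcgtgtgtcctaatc

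In Cox6a1 the NRF1 core began 162 bases before the start, and 161 bases before it on the other strand, with an ETS core, on the opposite strand, 16 bases before it. In Atp5g2 a HIF core on the opposite strand began 240 bases before the start and the NRF1 core 42 bases (41 on the other strand) before it, and in Atp5j2 the YY1 core began at base 24 of the transcript. Both strands were searched for the letters given, and no member window had different motifs that overlapped. The NRF1 core GCGCATGCG stood in 11% of member windows (8) and in 1.75% of all 32851 RefSeq windows, and its symmetric form, read on both strands at one place, in 6.85% and 0.971%. The ETS core CCGGAAG, read by GABP, stood in 21.9% and 8.86%, and the YY1 core AAGATGG in 15.1% and 6.34%. The HIF core ACGTG stood in 26% of member windows and 19.6% of all. In the 38 windows of members that fell on 1 kPa and the 35 of other nuclear members the shares were 15.8% (6) and 5.71% (2) for the NRF1 core, 7.89% and 5.71% for its symmetric form, 23.7% and 20% for ETS, 13.2% and 17.1% for YY1, and 26.3% and 25.7% for HIF. A match is a description of the letters and not of binding.

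Genes that work with the complexes were counted from lists. A list held 20 tested genes of the tricarboxylic acid cycle, of pyruvate entry and of a malic enzyme. The cycle feeds electrons to complexes I and II, though not through every gene listed. Of these 20, 12 fell on 1 kPa (60%, beside 22% of all tested genes, median -0.23), and 10 fell on 20 kPa (50%, beside 19.6% of all, median -0.18). Idh2, the mitochondrial NADP-dependent isocitrate dehydrogenase, had 77.1 and 74.8 CPM on 1 kPa, 89.8 and 87.7 CPM on 20 kPa, and 107 and 103 CPM on glass (1 kPa against glass -0.47, SE 0.06, adjusted p = 2.92e-07). Me2, a malic enzyme, fell most on 20 kPa of those named (-0.61, SE 0.08, adjusted p = 2.76e-07). Another list held 25 genes of oxidative phosphorylation mostly outside the name rule, among them carriers, porins, electron-transfer genes and genes of ubiquinone synthesis. Atp5mpl is also a member and Higd1a also in the list on HIF. Of these 25, 10 fell and 2 rose on 1 kPa (40% lower, median -0.19), and 9 fell and 1 rose on 20 kPa (36% lower, median -0.11). The heart and muscle form of the ADP/ATP carrier, Slc25a4, had 280.1 and 283 CPM on 1 kPa, 299 and 314 CPM on 20 kPa, and 381 and 393 CPM on glass (-0.46, SE 0.06, adjusted p = 5.12e-08 on 1 kPa). The phosphate carrier Slc25a3 fell on both gels (-0.35 and -0.31, adjusted p = 6.04e-06 and 4.09e-05), and Etfa, which brings electrons from fatty acid oxidation, on 1 kPa (-0.50, SE 0.07, adjusted p = 5.25e-07).

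Of 47 tested assembly factors of the complexes, 12 fell and 1 rose on 1 kPa (25.5% lower, beside 22% of all tested genes, median -0.08), and 4 fell and 3 rose on 20 kPa (8.51% lower, beside 19.6% of all, median 0.01). Cmc2, needed for complex IV, had 10.3 and 11.1 CPM on 1 kPa, 13.1 and 11.7 CPM on 20 kPa, and 15.8 and 16.4 CPM on glass (1 kPa against glass -0.59, SE 0.12, adjusted p = 0.000148). Coa3 (-0.38), Coa5 (-0.32) and Atpaf1 (-0.45), the last an assembly factor of F1, also fell on 1 kPa, with adjusted p of 0.000225, 0.000279 and 0.00167. Of 38 mitochondrial ribosomal proteins, which make the mitochondrially encoded subunits, 13 fell and 1 rose on 1 kPa (34.2% lower, median -0.15), and 7 fell and 1 rose on 20 kPa (18.4% lower, median -0.08), beside the same 22% and 19.6% of all genes. Mrps6 fell most, with 30.8 and 31.9 CPM on 1 kPa, 31.1 and 31.4 CPM on 20 kPa, and 47.9 and 53.5 CPM on glass (-0.69 on each gel, SE 0.08 and 0.08).

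Of 22 tested regulators of mitochondrial biogenesis, 8 rose (36.4%, beside 23% of all tested genes) and 2 fell on 1 kPa (median 0.07), and 5 rose on 20 kPa (22.7%, beside 22.3% of all, median 0.07). Ppargc1a, the coactivator PGC-1alpha, had 3.95 and 4.54 CPM on 1 kPa, 6.29 and 6.54 CPM on 20 kPa, and 1.43 and 1.57 CPM on glass. It was highest on 20 kPa, with log2 fold changes of 1.498 on 1 kPa (SE 0.24, adjusted p = 5.72e-06) and 2.10 on 20 kPa against glass (SE 0.22, adjusted p = 4.82e-09). Mterf4, which acts in the assembly of mitochondrial ribosomes, had 29.2 and 28.1 CPM on 1 kPa, 29.0 and 31.2 CPM on 20 kPa, and 15.5 and 16.1 CPM on glass (0.86 and 0.93, SE 0.095 and 0.094, adjusted p = 8.52e-09 and 1.64e-09).

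Genes through which HIF, the transcription factor of low oxygen, is known to act on mitochondria and fuel use moved on 1 kPa in the direction of Ndufa4l2 and Cox4i2. Of 12, 11 rose and 1 fell on 1 kPa against glass (91.7% higher, beside 23% of all tested genes, median 0.70), 5 rose and 2 fell on 20 kPa against glass (41.7% higher, beside 22.3% of all, median 0.02), and 11 fell on 20 kPa against 1 kPa (91.7%, beside 9.92% of all, median -0.82). Higd1a, a small hypoxia-inducible protein of complex IV, had 77.1 and 76.4 CPM on 1 kPa, 50.6 and 52.9 CPM on 20 kPa, and 48.3 and 50 CPM on glass (1 kPa against glass 0.64, SE 0.07, adjusted p = 4.42e-09). Car9, a carbonic anhydrase, had 163.9 and 170.8 CPM on 1 kPa, 67.8 and 67.7 CPM on 20 kPa, and 19.0 and 18.3 CPM on glass, and Vegfa, an angiogenic factor, had 378 and 389 CPM, 207 and 213 CPM, and 122 and 121 CPM in that order. In both 20 kPa lay between, for Car9 1.86 above glass and 1.30 below 1 kPa on the log2 scale (20 kPa against 1 kPa -1.30), and for Vegfa 0.79 above glass and 0.87 below 1 kPa (-0.87). Egln3, an oxygen sensor that HIF induces, had 32.7 and 29.98 CPM on 1 kPa, 8.68 and 8.19 CPM on 20 kPa, and 3.38 and 4.12 CPM on glass. Bnip3, a receptor for mitophagy, had 123 and 123 CPM on 1 kPa, 65.9 and 64.95 CPM on 20 kPa, and 56.0 and 58.7 CPM on glass. In Higd1a, Egln3 and Bnip3 1 kPa stood well above the others, with 20 kPa nearer to glass than to 1 kPa. Ndufa4l2 and Cox4i2 are members and not in this list, and the part of these genes in the subunits' changes was not tested. The exception on 1 kPa was Pdk3, which was lower on both gels (20 kPa against glass -0.35, SE 0.07, adjusted p = 0.000282). On 20 kPa against glass, 6 of the 12 had a negative and 6 a positive fold change. Slc2a1, for 1, had 229.5 and 238.1 CPM on 1 kPa, 124 and 121 CPM on 20 kPa, and 148.1 and 143.5 CPM on glass.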

How the data were processed

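Raw counts per gene of polyadenylated RNA in 6 libraries were deposited by the authors as whole numbers. Per the labels' protocols, RNA was captured on poly-T beads, primed with random hexamers and amplified, with no molecular identifiers mentioned. Per the submitters' processing notes, Trim Galore, cutadapt, STAR 2.7.10b and featureCounts were used with mm10. Settings, annotation release and strandedness were not stated in what was used here.

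Of the identifiers, 91.4% matched GENCODE M21 (GRCm38), from which symbols, exon lengths and positions were taken. Genes passing filterByExpr (16093) were fitted over all 6 libraries with substrate as the only term in edgeR 4.0.16 (R 4.3.3), with TMM scaling and the quasi-likelihood test on 3 residual degrees of freedom. Benjamini-Hochberg adjustment was over all tested genes, with a threshold of 0.05, and edgeR's common dispersion came to a coefficient of variation of 4.98%. The fit was tested on simulated data. CPM use TMM-scaled library sizes, and RPKM and isoform shares divide them by the joined length of all annotated exons of a gene. That length can exceed the length of the transcripts present. Alternatives were DESeq2 1.42.0, limma-voom 3.58.1, other scalings and filters, the 2 groups alone, a replicate block and leaving out each library. Copies and overlaps were found with blastn 2.17.0 in M21 transcripts, at 98% identity over 75 nt or more and over 20% of the length. Promoter windows are from RefSeq.

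The members and lists were chosen with earlier results of these data known. Values are given for every mitochondrially encoded, complex II and isoform-family member, for the 4 largest rises and 4 largest falls among called nuclear members of at least 5 CPM whose groups do not overlap, and for up to 4 genes of each other list by smallest p. Other subunits were named afterwards for their role, and 1 member is counted but not reported by itself here. An exact permutation test of 2 against 2 libraries cannot go below p = 0.333, so none was made for single values.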

Additional observations from a re-analysis of the deposited data

How the results depend on the processing

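No called result changed sign. Counting each call of a member once per alternative fit, 1147 held and 181 were lost. Where the main result was not called, only part of the members was followed: 1132 such results stayed uncalled and 47 were gained. The 47 therefore do not hold all gains and cannot be set beside the 181. The median log2 fold change of nuclear subunits stayed between -0.25 and -0.17 for 1 kPa against glass, between -0.16 and -0.06 for 20 kPa against glass, and between 0.06 and 0.14 between the gels. Counts moved by more than 1.5 times in these cases, and the cause was not tested. With 1 library left out at a time, members higher on 1 kPa than on glass numbered 2 to 6 (3 with all libraries) and those lower 28 to 48 (43). On 20 kPa against glass, those higher numbered 1 to 10 (5) and those lower 8 to 35 (24). On 20 kPa against 1 kPa, those higher numbered 0 to 17 (6) and those lower 1 to 2 (2). With a group left at 1 library, that library is assumed to vary like the others. With only the 2 groups compared, 1 member was higher on 20 kPa than on glass and 14 were higher on 20 kPa than on 1 kPa, with DESeq2 1 and 0, and with library totals 16 between the gels. Counting subunits of the 5 complexes alone left 1 member lower on 20 kPa than on 1 kPa. Same-numbered libraries share only a number: their deviations correlated at -0.03, -0.02 and -0.03 between groups. With the replicate block, 2 members were higher and 43 lower on 1 kPa against glass, 4 and 22 on 20 kPa against glass, and 6 and 2 between the gels. Replicates varied beyond counting error (chi-square over its degrees of freedom 9.80 on 1 kPa, 3.46 on 20 kPa, 37.8 on glass). Depth limits the isoforms and mitochondrial genes with few counts, and 2 libraries a group limit every call.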
